A study of Mus musculus with 10 samples.

Results

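Dab2, the gene of an endocytic adaptor, and 8 genes of macrophage uptake receptors and surface proteins were followed across 10 arrays of mouse leukaemia cells. The 9 genes are Dab2, Lrp1, Msr1, Marco, Mrc1, Stab1, Cd68, Cd14 and Adgre1, out of 19938 genes with a probe set of their own. They were taken by symbol, with all probe sets of Dab2 and the brightest probe set of each other gene, which made 10 probe sets out of 35556. Each of the other 8 genes had only 1 probe set that carried its symbol alone. The set was chosen by the difference of Dab2 between 4-OHT and vehicle arrays of the lines with a floxed Zfx allele, known beforehand, and by probe set brightness. Differences with 4-OHT in those lines are therefore given as a description, with no test. Values are log2 of the RMA signal throughout. Dab2, Lrp1, Msr1, Marco, Stab1, Cd68, Cd14 and Adgre1 passed the level filter of 6.23 and were fitted, while Mrc1 did not pass.

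The cells were c-Kit-positive cells of primary acute myeloid leukaemias driven by the MLL-AF9 fusion, and all carried a tamoxifen-inducible Cre-ER transgene. Lines 10949, 10950 and 10986 held a conditional allele of the X-linked Zfx gene (Zfx fl/y), and lines 10977 and 10980 the wild-type allele (wt/y). Cultures of every line received 10 nM 4-hydroxytamoxifen (4-OHT) or ethanol vehicle for 72 h before c-Kit-positive cells were purified by flow cytometry. This gave 3 fl 4-OHT, 3 fl vehicle, 2 wt 4-OHT and 2 wt vehicle arrays. Each line is an independent leukaemia. The labels do not say which promoter drives Cre-ER. The question of the series is the effect of Zfx deletion on the transcriptome.

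Macrophages clear particles, lipoproteins and microbial products through uptake receptors with broad ligand ranges. Dab2 is an adaptor that binds short tail motifs of receptors of the LDL receptor family and links them to clathrin and its adaptor complex AP-2. In the myeloid lineage its expression is known from macrophages. Lrp1 is a large endocytic receptor of that family. Msr1 and Marco are class A scavenger receptors, Mrc1 is the mannose receptor, Stab1 is stabilin-1, and Cd68 is a late endosomal glycoprotein. Cd14 is the co-receptor that hands lipopolysaccharide to the Toll-like receptor complex, and Adgre1 encodes F4/80, the classical mouse macrophage surface marker.

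On the arrays, Zfx had signals of 9.98 to 10.07 with 4-OHT and of 9.24 to 10.09 with vehicle in the fl lines, so its probe set showed no loss. Neither the deleted exons nor the probe positions are stated, so this checks neither the deletion nor the labels. Of all arrays, the vehicle one of line 10986 was the least like the others, with a mean correlation of 0.961 with the other arrays across genes, against 0.979 to 0.985 for the other 9. Kit, the gene of the sorted receptor, had levels of 8.35 to 9.94, and Mpo, a myeloid progenitor gene, of 11.29 to 13.62. Of 14 macrophage markers 13 were measured. Their mean level was 7.24 to 7.34 on the fl 4-OHT arrays and 7.07 to 7.32 on the fl vehicle arrays, and 7.21 to 7.26 on the wt 4-OHT arrays and 7.09 to 7.25 on the wt vehicle arrays. The complement genes C1qa and C1qc of that list were below the level filter. In these bulk samples, more cells that express a gene and more RNA per cell cannot be told apart. Nothing in the labels says that the 2 cultures of a line were repeated, so no p-value measures the spread between repeats. For differences with 4-OHT, p-values rest on how the within-line differences vary between lines. That spread is pooled over fl and wt lines and combined by limma with that of the other genes. Between genotypes, p-values rest on the spread between arrays of a group, with the line as a random block.

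Dab2 was the member that differed most with 4-OHT in the fl lines. Its level was 10.19, 9.70 and 10.71 on the fl 4-OHT arrays of lines 10949, 10950 and 10986, against 8.13, 8.02 and 8.73 on their vehicle arrays. In the wt lines it was 8.88 and 8.79 under 4-OHT, against 8.68 and 8.98 under vehicle, in lines 10977 and 10980. All 3 fl 4-OHT arrays lay above each of the other 7 arrays, with the lowest fl 4-OHT array at 9.70 and the highest of the others, wt vehicle of line 10980, at 8.98. Such a gap was shown by 1.77% of all genes tested, and among the 9 genes by Dab2 and Stab1. The difference within a line was 2.06, 1.68 and 1.99 in the fl lines, a mean of 1.91 ± 0.20 (SD, n = 3 lines) or 3.76-fold. It was 0.20 and -0.19 in the wt lines.

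**Figure D1:**
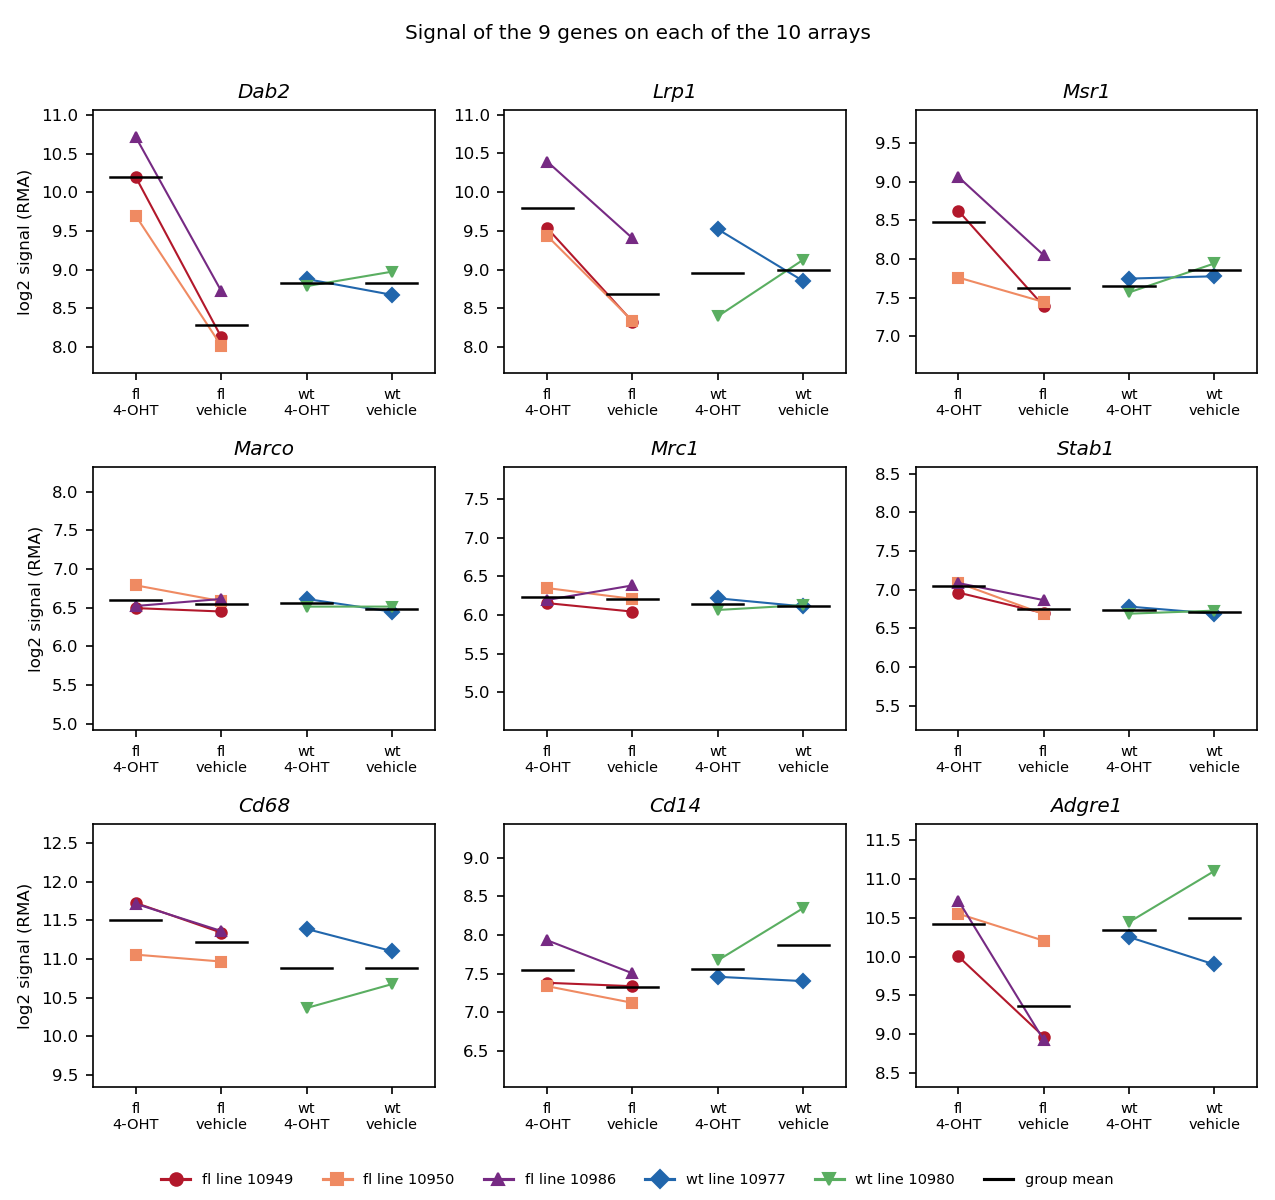
Signal of the 9 genes on each array, as log2 of the RMA value, by group. Symbols and lines join the 4-OHT and vehicle arrays of the same line, black bars are group means (n = 3 fl and 2 wt), and all panels span the same height in log2 units. The 3 fl 4-OHT arrays of Dab2 lie between 9.70 and 10.71, above the other 7 arrays.

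The order of the Dab2 group means was fl vehicle at 8.29 ± 0.38, wt vehicle at 8.83 ± 0.21, wt 4-OHT at 8.83 ± 0.07 and fl 4-OHT at 10.20 ± 0.51 (SD, n = 3 fl and n = 2 wt arrays). The lower 3 groups did not separate beyond their spread, since fl vehicle of line 10986 (8.73) lay above wt vehicle of line 10977 (8.68). Of the fl vehicle arrays only that one, the least like the others of the 10, reached the wt range of 8.68 to 8.98. Those of lines 10949 and 10950 lay lower, at 8.13 and 8.02. Dab2 was among the genes called in the fl lines at a limma adjusted p under 0.05. Of all 15662 genes tested, 0.153% were called there, and 0.0511% were called higher. None of the other 7 fitted members was called. Because the gene was picked for this difference, nothing is read from its call. The count depends on which lines are in the fit, as 0 genes passed without line 10949 or 10950, and 440 passed without line 10986. Leaving out wt line 10977 or 10980 kept the Dab2 difference of the fl lines at 1.91, but the gene was then no longer called. The wt lines enter that comparison only through the shared estimate of the spread. Without line 10986 the mean Dab2 difference of the fl lines was 1.87.

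The second probe set of Dab2 did not show the difference. Its range was 5.57 to 5.64 in fl 4-OHT cells, 5.59 to 5.88 in fl vehicle cells and 5.48 to 5.61 on all wt arrays. It lies below the level filter and was not tested. The platform annotation ties it to a cDNA record and not to the RefSeq transcripts that define the first probe set. Its differences were -0.03, -0.04 and -0.24 in the fl lines and 0.00 and 0.02 in the wt lines, so the Dab2 result rests on 1 probe set.

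RefSeq places 2 starts of transcription at Dab2 in GRCm38.p6, and the 250 bases before each are shown because the study is about the transcription factor Zfx and the gene was picked for its difference. Capitals mark matches, on either strand, to GAGGAA (the PU box of the myeloid factor PU.1), AGGCCT (the core of the known ZFX motif, which reads the same on both strands), TGANTCA (AP-1) and CCAAT. Sequences run 5′ to 3′ on the strand of the gene.
Dab2 promoter 1 (chr15:6299539-6299788, + strand): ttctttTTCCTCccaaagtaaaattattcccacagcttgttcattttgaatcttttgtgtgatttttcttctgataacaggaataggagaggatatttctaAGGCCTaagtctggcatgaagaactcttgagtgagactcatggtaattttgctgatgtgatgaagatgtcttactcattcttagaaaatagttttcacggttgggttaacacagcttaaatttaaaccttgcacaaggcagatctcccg
Dab2 promoter 2 (chr15:6386498-6386747, + strand): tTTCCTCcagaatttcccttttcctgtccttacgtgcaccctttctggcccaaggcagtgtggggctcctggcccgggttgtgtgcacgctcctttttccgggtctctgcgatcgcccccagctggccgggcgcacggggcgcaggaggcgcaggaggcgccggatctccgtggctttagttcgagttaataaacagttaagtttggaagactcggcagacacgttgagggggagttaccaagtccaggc
The first window held an AGGCCT whose first base lies 149 bases before the start, and a PU box on the other strand at 244 bases. The second held a PU box on the other strand at 249 bases and none of the other motifs. AGGCCT occurred in 8.7% and the PU box in 23.3% of 32851 promoter windows of this length. The GC content was 36.8% in the first and 60.0% in the second window, against a median of 52.4%. Which start the cells use cannot be read from the array.

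Lrp1, a receptor whose tail is known to bind Dab2, was also higher with 4-OHT in each fl line. It had 9.54, 9.44 and 10.40 on the fl 4-OHT arrays, against 8.33, 8.34 and 9.40 on the fl vehicle arrays, of lines 10949, 10950 and 10986. These groups did not overlap, but the gap between fl 4-OHT of line 10950 (9.44) and fl vehicle of line 10986 (9.40) was narrow. The differences of 1.21, 1.10 and 0.99 gave a mean of 1.10 ± 0.11 (SD, n = 3 lines), or 2.14-fold. Fl 4-OHT arrays all above fl vehicle arrays were found for Dab2, Stab1 and Lrp1, and for 4.55% of all genes tested.

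The wt lines differed from each other at Lrp1. The gene had 9.52 under 4-OHT against 8.85 under vehicle in line 10977, and 8.39 under 4-OHT against 9.13 under vehicle in line 10980. The difference of 0.67 in line 10977 lay above 99.9% of the genes tested in that line, and the difference of -0.73 in line 10980 lay above only 0.485% of them. Their mean of -0.03 (SE 0.29, n = 2 lines, limma adjusted p = 1) therefore stands for neither line. The lowest fl difference exceeded that of line 10977 by 0.32.

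The window before the Lrp1 start is shown beside those of Dab2, since the 2 genes differed in the same direction.
Lrp1 promoter 1 (chr10:127621149-127621398, - strand): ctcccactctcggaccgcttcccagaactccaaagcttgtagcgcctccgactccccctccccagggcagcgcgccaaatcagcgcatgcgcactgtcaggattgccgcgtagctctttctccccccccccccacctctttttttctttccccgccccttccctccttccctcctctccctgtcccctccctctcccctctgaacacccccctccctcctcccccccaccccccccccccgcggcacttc
It had a GC content of 67.2% and held 13 CpG, against a median of 6.0 over all windows. None of the letters searched occurred in it.

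Msr1, which takes up modified LDL, had 8.62, 7.76 and 9.06 on the fl 4-OHT arrays of lines 10949, 10950 and 10986, against 7.39, 7.45 and 8.05 on their vehicle arrays. The groups overlapped, because fl 4-OHT of line 10950 lay below fl vehicle of line 10986. The within-line differences were 1.23, 0.32 and 1.01, a mean of 0.85 ± 0.48 (SD, n = 3 lines), with line 10950 well below the others. In the wt lines Msr1 had 7.75 and 7.57 under 4-OHT, against 7.78 and 7.94 under vehicle, and the difference of -0.20 (SE 0.22, n = 2 lines) did not pass (limma adjusted p = 1).

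Marco is another class A scavenger receptor. Its signals were 6.50 to 6.79 on the fl 4-OHT arrays and 6.45 to 6.61 on the fl vehicle arrays. They were 6.52 to 6.61 under 4-OHT and 6.45 to 6.52 under vehicle in the wt lines. The fl differences of 0.04, 0.20 and -0.09 did not share a direction.

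Mrc1, which binds mannose-rich glycans, had a mean of 6.18 over the 10 arrays, below the level filter, and was not fitted. Its signals ran from 6.15 to 6.35 on the fl 4-OHT arrays, 6.04 to 6.38 on the fl vehicle arrays and 6.06 to 6.21 on the wt arrays. The groups overlapped, and the fl differences were 0.11, 0.14 and -0.19.

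Stab1, a scavenger receptor of macrophages and sinusoidal endothelium, was low but even. It had 6.96, 7.09 and 7.09 on the fl 4-OHT arrays, against 6.70, 6.69 and 6.87 on the fl vehicle arrays, of lines 10949, 10950 and 10986. The 4 wt arrays lay between 6.69 and 6.78, so the 3 fl 4-OHT arrays stood above the other 7 here too. The gap was narrow, between 6.96 on fl 4-OHT of line 10949 and 6.87 on fl vehicle of line 10986. The differences were small, at 0.27, 0.40 and 0.22 (mean 0.30 ± 0.09, SD, n = 3 lines). Of 9 endothelial markers, Kdr, Tek and Emcn were below the filter and Cdh5 lay between 6.15 and 6.40 on the 10 arrays. Pecam1, a marker of endothelium that blood cells also carry, had a mean level of 10.07 and differed by 0.58, 0.38 and 1.45 in the fl lines (mean 0.80, SE 0.21, limma adjusted p = 0.183), and Lyve1 differed by -0.11 (SE 0.15, adjusted p = 0.92). The endothelial list averaged 6.95 to 7.13 on the fl 4-OHT arrays and 6.85 to 6.99 on the fl vehicle arrays, and 6.89 to 6.90 on the wt 4-OHT arrays and 6.81 to 6.92 on the wt vehicle arrays. Its part in the Stab1 difference was not tested.

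The window before the Stab1 start is given because the fl 4-OHT arrays lay above the rest, as at Dab2, though by a narrow gap.
Stab1 promoter 1 (chr14:31168642-31168891, - strand): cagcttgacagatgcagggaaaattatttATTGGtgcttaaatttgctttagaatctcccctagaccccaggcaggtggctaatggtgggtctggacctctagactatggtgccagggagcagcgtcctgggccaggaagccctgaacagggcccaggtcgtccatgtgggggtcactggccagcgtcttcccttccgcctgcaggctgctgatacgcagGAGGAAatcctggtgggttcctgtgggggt
It held a PU box 30 bases before the start, a CCAAT on the other strand at 221 bases and no AGGCCT. Of the 9 genes, 6 were searched, with 7 windows. Msr1 and Adgre1 had no entry among the RefSeq promoters, and Cd14 was left out before the search. Mrc1 had 3 PU boxes, Marco and Cd68 had 1 each, and Cd68 also had 2 AP-1 and 3 CCAAT matches. CCAAT occurred in 33.8% and TGANTCA in 6.75% of all windows. The AGGCCT of the first Dab2 window was the only such match in the 7 windows. A match is a string of letters and not evidence of binding.

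Cd68, the late endosomal glycoprotein, gave strong signals in all groups. It had 11.72, 11.06 and 11.71 on the fl 4-OHT arrays, against 11.34, 10.97 and 11.36 on the fl vehicle arrays, of lines 10949, 10950 and 10986. In wt lines 10977 and 10980 it had 11.39 and 10.37 under 4-OHT, against 11.10 and 10.67 under vehicle. The groups overlapped, and lines differed more from each other than the treatments did. The fl differences were 0.38, 0.09 and 0.35, and that of wt line 10977, 0.29, fell among them.

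Cd14 had 7.38, 7.34 and 7.93 on the fl 4-OHT arrays, against 7.34, 7.12 and 7.50 on the fl vehicle arrays, of lines 10949, 10950 and 10986. The groups overlapped and the differences were 0.04, 0.22 and 0.43. The highest signal of the 10 arrays, 8.35, was on wt vehicle of line 10980, against 7.67 under 4-OHT in that line, while line 10977 had 7.46 under 4-OHT and 7.40 under vehicle. The wt difference of -0.31 (SE 0.19, n = 2 lines, limma adjusted p = 1) came from line 10980, with -0.67 there and 0.06 in line 10977.

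Adgre1 varied most among the fl lines. It had 10.00, 10.55 and 10.72 on the fl 4-OHT arrays, against 8.97, 10.20 and 8.92 on the fl vehicle arrays, of lines 10949, 10950 and 10986. The groups overlapped through line 10950, whose vehicle array lay above fl 4-OHT of line 10949. The differences were 1.04, 0.35 and 1.80, with a mean of 1.06 ± 0.73 (SD, n = 3 lines), and the largest came from the line whose vehicle array stood apart. Without line 10986 the mean was 0.69. Wt lines 10977 and 10980 had 10.25 and 10.44 under 4-OHT, against 9.90 and 11.11 under vehicle. The wt differences of 0.35 and -0.66 had opposite signs, and that of line 10977 was as large as that of fl line 10950.

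**Figure D2:**
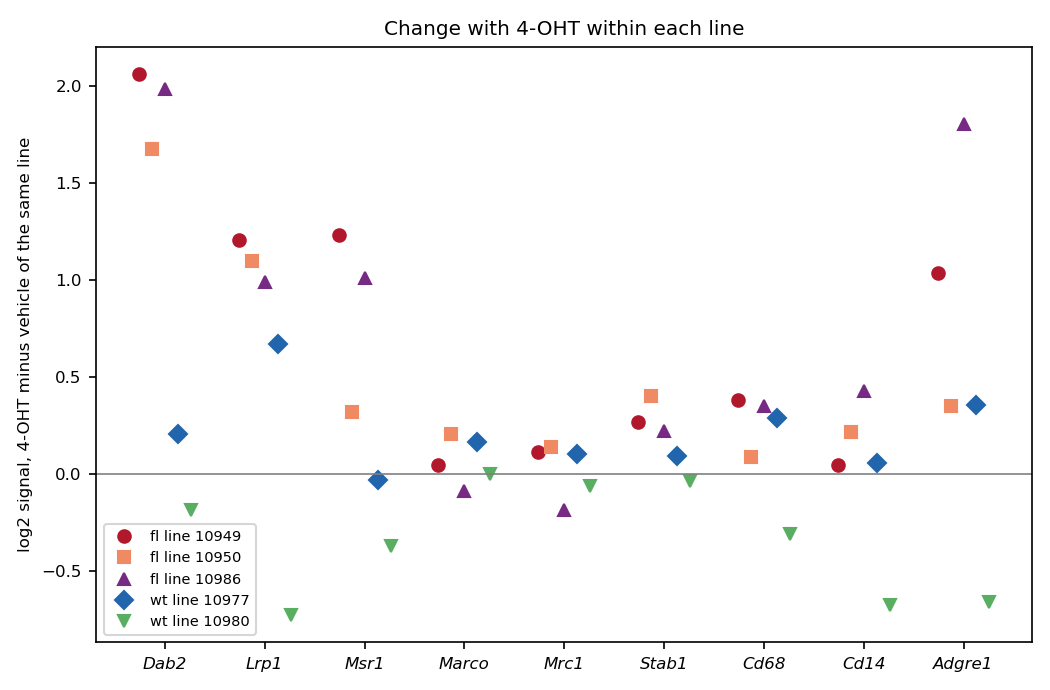
Difference in log2 signal between the 4-OHT and the vehicle array of the same line, for the 9 genes, with 1 symbol per line (3 fl and 2 wt). Dab2 differs by 1.68 to 2.06 in the fl lines and by -0.19 and 0.20 in the wt lines, while Lrp1 reaches 0.67 in wt line 10977.

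Of the 9 genes, Dab2, Msr1, Cd68, Stab1, Lrp1, Cd14 and Adgre1 were higher with 4-OHT in each of the 3 fl lines, a pattern shown by 14.6% of all genes tested. In Dab2, Msr1, Stab1 and Lrp1 each fl line also differed by more than either wt line, as in 9.32% of all genes. Marco and Mrc1 had no common direction. The median difference in the fl lines was 0.57 over the 8 fitted members and -0.00 over all genes tested. It describes genes that were picked with these values known. In the wt lines 7 of the 9 genes, all but Msr1 and Marco, were higher in line 10977 and lower in line 10980. That held for 26.5% of all genes tested. Msr1 was lower with 4-OHT in both wt lines, as were 24.5% of all genes tested.

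**Figure D3:**
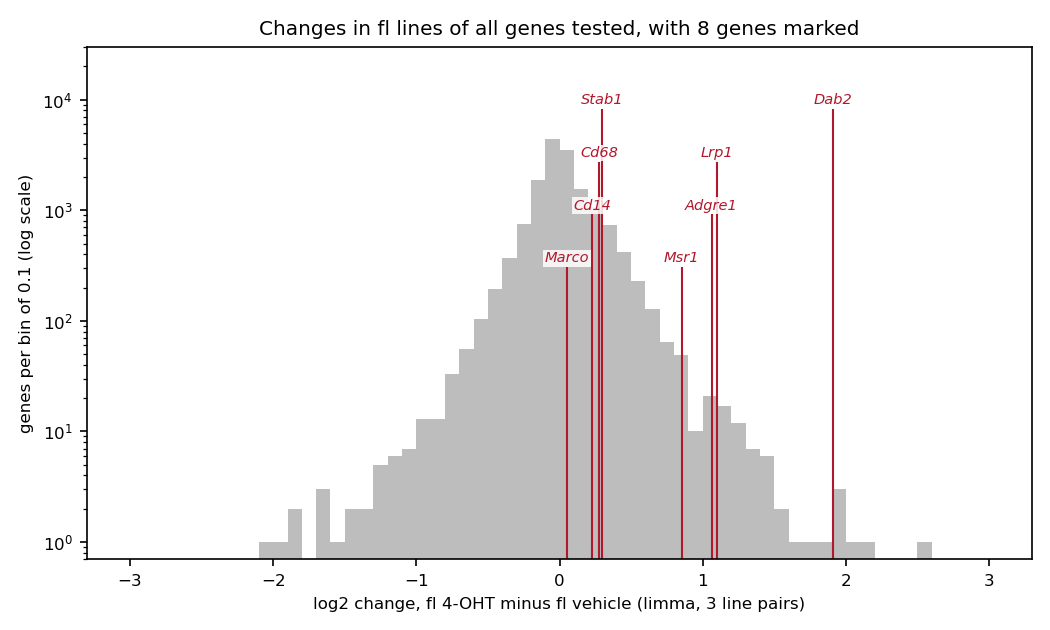
Log2 changes in the fl lines (4-OHT minus vehicle, limma, 3 line pairs) of the 15662 genes tested, as a histogram with a logarithmic count axis. Red lines mark the 8 fitted members, from Marco at 0.05 to Dab2 at 1.91.

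The wt lines show what 4-OHT and Cre activity do without a floxed allele, and none of the 8 fitted members passed there. Over all genes tested 0% were called by limma, and 23 genes had an unadjusted p under 0.05, with 0 members among them. The Dab2 difference was 0.01 (SE 0.15, n = 2 lines, limma adjusted p = 1), with a 95% interval, not adjusted for the number of genes, of -0.36 to 0.38. For Msr1 the interval ran from -0.74 to 0.33, for Lrp1 from -0.73 to 0.67 and for Adgre1 from -1.01 to 0.71. Differences with 4-OHT of that size in wt lines cannot be set aside at this number of lines. The intervals use a spread pooled over fl and wt lines, not that of the 2 wt lines alone. At Lrp1 the 2 wt differences, 0.67 and -0.73, lie at the ends of the interval.

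None of the 8 members passed between the genotypes under vehicle, a comparison that shares the fl vehicle arrays with the difference Dab2 was picked for, so its value here is not independent of that choice. Of all genes tested 0.0192% were called. Adgre1 was at 9.36 ± 0.73 in fl vehicle and 10.50 ± 0.85 in wt vehicle cells (SD, n = 3 and n = 2 lines), a difference of -1.14 (SE 0.45, limma adjusted p = 0.492). Dab2 differed by -0.53 (SE 0.28, adjusted p = 0.519) and Cd14 by -0.55 (SE 0.27, adjusted p = 0.519). The other 5 had adjusted p values between 0.591 and 0.82. The fl vehicle arrays include the one that stood apart. The fl minus wt difference of Dab2 under vehicle was -0.75 without line 10986. Cd14 was at -1.02 without line 10977 and -0.08 without line 10980, and Adgre1 at -1.74 and -0.53 without the same lines.

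Set against the wt lines, all under 4-OHT, the fl lines differed by 1.37 (SE 0.28) at Dab2, 0.83 (SE 0.43) at Lrp1 and 0.82 (SE 0.33) at Msr1, in a comparison that shares the fl 4-OHT arrays with the difference the gene was picked for. Adgre1 was at 10.43 ± 0.38 in fl 4-OHT and 10.35 ± 0.14 in wt 4-OHT cells (SD, n = 3 and n = 2 lines), a difference of 0.08 (SE 0.45), and Cd14 differed by -0.01 (SE 0.27). No member was called there, against 0.645% of all genes tested. The 4-OHT difference in fl lines minus that in wt lines was 1.90 (SE 0.20) for Dab2, 1.22 (SE 0.46) for Adgre1, 1.13 (SE 0.38) for Lrp1 and 1.06 (SE 0.29) for Msr1. It was 1.83 for Lrp1 and 1.72 for Adgre1 without line 10977, and 0.43 for Lrp1 and 0.71 for Adgre1 without line 10980. In that contrast 0% of all genes were called, and 912 had an unadjusted p under 0.05.

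The machinery that Dab2 works with did not move in 1 direction. Of 31 genes of the clathrin coat and its adaptors 28 were tested in the fl lines, and 0 were called higher or lower, with a median of 0.02. Cltc, the clathrin heavy chain, differed by 0.45 (SE 0.10, limma adjusted p = 0.128) and the light chain gene Cltb by -0.64 (SE 0.11, adjusted p = 0.101). Fcho1, which helps to start coated pits, differed by -0.54 (SE 0.09, adjusted p = 0.0948), and Ap2m1, the AP-2 subunit that binds cargo, by -0.00 (SE 0.09). By direction alone, 7 of the 28 were higher and 10 were lower in all 3 fl lines, against 14.6% and 14.5% of all genes tested. Without line 10986 the list held 2 calls, both lower.

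Of 20 other scavenger and phagocytic receptors 16 were tested and 0 were called, with a median of 0.01. Clec7a, the β-glucan receptor Dectin-1, differed by 1.34, 0.77 and 1.54 in the fl lines (mean 1.22, SE 0.16, limma adjusted p = 0.0622) and by -0.00 and -0.21 in the wt lines. Without line 10986 the list held 1 call, higher. Olr1, a receptor for oxidised LDL, differed by 0.38 (SE 0.22, adjusted p = 0.584), and Scarb1, the HDL receptor, by -0.20 (SE 0.14, adjusted p = 0.647). Cd36 had a mean of 5.76, below the filter.

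The LDL receptor family, to which Lrp1 belongs, also held 0 calls among 12 tested genes of 14, with a median of -0.08. Lrp12 differed by 0.56 (SE 0.12, limma adjusted p = 0.132), Sorl1, a sorting receptor, by 0.41 (SE 0.14, adjusted p = 0.292), and Lrp8, the apolipoprotein E receptor 2, by -0.44 (SE 0.12, adjusted p = 0.208). Each of these 3 had the same sign in all 3 fl lines. Lrp1 thus had a larger difference in the fl lines than any of the 12 other family and regulator genes tested, a description of genes whose choice was not blind.

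Lipopolysaccharide recognition genes, with which Cd14 acts, had a median of 0.44 over 9 tested genes, and 0 were called. Cd180 differed by 1.25 (SE 0.22, limma adjusted p = 0.0998) and its partner Ly86 by 0.90 (SE 0.22, adjusted p = 0.163). Ly96, which encodes MD-2, differed by 0.83, -0.03 and 2.68 in lines 10949, 10950 and 10986 (mean 1.16, SE 0.45, adjusted p = 0.36). Tlr4 itself differed by -0.18 (SE 0.18, adjusted p = 0.821). Without line 10986 the list held 3 calls, all higher. Among 17 macrophage transcription factors 13 were tested and 1 was called, against 0.153% of all genes tested. This and the other gene lists were chosen with earlier results of these data known. Their counts and adjusted p values in the fl lines are therefore a description. Irf8, a factor of monocyte differentiation, rose by 0.93 (SE 0.10, n = 3 lines, limma adjusted p = 0.0373), Cebpb differed by -0.65 (SE 0.10, adjusted p = 0.0845) and Pparg by 0.51 (SE 0.12, adjusted p = 0.165). The median was 0.05. Without line 10949, 10950, 10977 or 10980 the list held 0 calls, and without line 10986 it held 2, 1 higher and 1 lower.

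**Figure D4:**
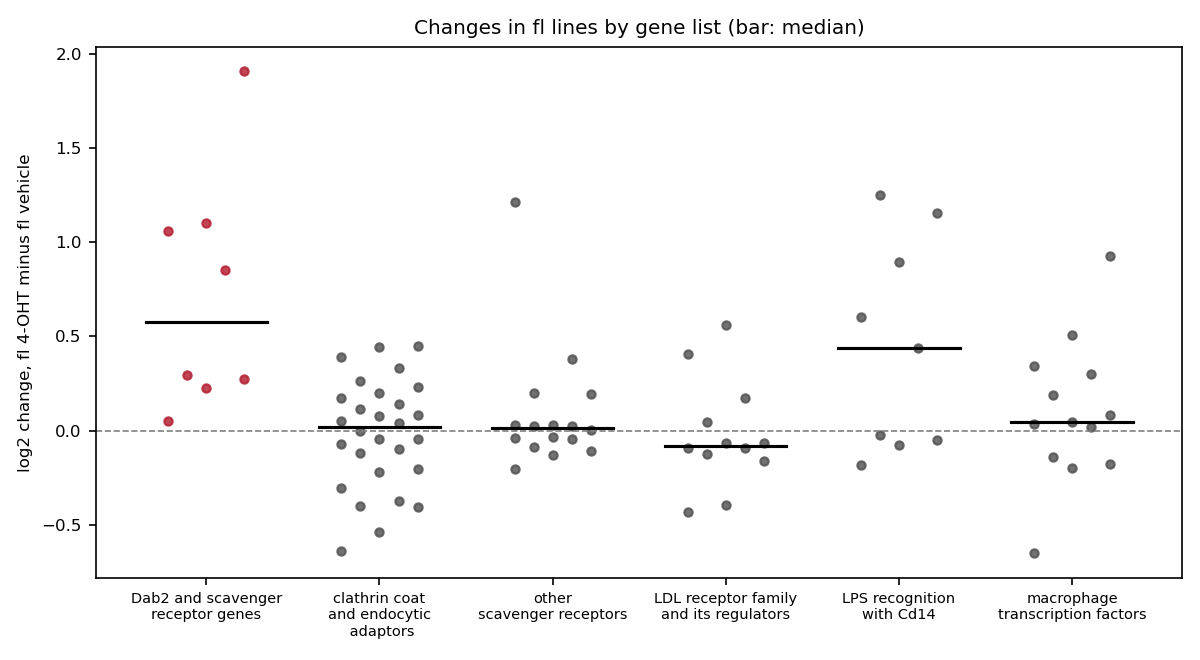
Log2 changes in the fl lines (4-OHT minus vehicle, limma, 3 line pairs) for the 8 fitted members, in red, and for the tested genes of 5 lists, in grey. Black bars are medians, which run from -0.08 in the LDL receptor list to 0.44 in the lipopolysaccharide list and 0.57 for the members, picked with these values known.

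Of the markers of other myeloid stages, 1 of 7 monocyte and 1 of 10 fitted neutrophil genes were called higher in the fl lines, and 0 macrophage and 0 progenitor genes. The share called higher over all genes tested was 0.0511%. The lists were chosen with earlier results of these data known, so these counts are a description. No gene was called in the fl lines without line 10949 or without line 10950. The marker calls were not kept without wt line 10977 or without wt line 10980 either. With arrays centred on their median 3 genes were called, 1 of them higher. The median differences were 0.12 for the monocyte, 0.18 for the neutrophil, 0.03 for the macrophage and 0.05 for the progenitor list, so the larger means of the first 2 lists rest on a few genes. The mean difference of 7 measured monocyte markers was 0.51, 0.56 and 0.57 in lines 10949, 10950 and 10986 and 0.01 in each wt line, with Vcan called higher (1.48, SE 0.11, limma adjusted p = 0.0143) and Lyz2 at 2.08 (SE 0.39, adjusted p = 0.111). Their mean level was 8.88 to 9.16 on the fl 4-OHT arrays and 8.31 to 8.65 on the fl vehicle arrays, and 8.87 to 9.06 on the wt 4-OHT arrays and 8.86 to 9.05 on the wt vehicle arrays. The 11 neutrophil markers differed on average by 0.49, 0.32 and 0.56 in the fl lines and by 0.26 and -0.44 in lines 10977 and 10980, with Mmp8 called higher (2.56, SE 0.19, adjusted p = 0.0143) and Cxcr2 at 1.08 (SE 0.21, adjusted p = 0.114). Their mean level was 8.09 to 8.56 on the fl 4-OHT arrays and 7.77 to 8.06 on the fl vehicle arrays, and 7.74 to 8.99 on the wt 4-OHT arrays and 8.17 to 8.73 on the wt vehicle arrays. The 13 macrophage markers differed on average by 0.17, 0.17 and 0.01 in the fl lines. In wt lines 10977 and 10980 their mean differences were 0.17 and -0.04. Csf1r, the receptor of the macrophage growth factor, was at 0.61 (SE 0.13, adjusted p = 0.134) in the fl lines and Gpnmb at 0.58 (SE 0.13, adjusted p = 0.133). In wt lines 10977 and 10980 Csf1r differed by 0.29 and -0.25, and Gpnmb by 0.32 and 0.02. The 10 progenitor markers had 0 calls and mean differences of 0.05, 0.11 and 0.32 in the fl lines, with Cd34 at 1.04 (SE 0.35, adjusted p = 0.292) and Ptprc at 0.41 (SE 0.17, adjusted p = 0.403). Their mean differences were 0.12 and -0.07 in wt lines 10977 and 10980. Mast cell, dendritic cell, erythroid and lymphoid lists had 0 calls and mean differences between -0.17 and 0.23 in the fl lines. Their genes with the largest differences were Cpa3 at 0.89 and Mcpt8 at 0.33 for mast cells and basophils, Flt3 at 0.43 and Cd74 at 0.31 for dendritic cells, Klf1 at -0.12 and Gp9 at 0.07 for the erythroid and megakaryocyte list, and Cd79b at 0.80 and Rag1 at -0.11 for lymphoid cells, with adjusted p values of 0.143 or more. The part of these cells in the differences of Dab2, Lrp1, Msr1 and Adgre1 was not tested. Kit differed by 0.20 (SE 0.12, adjusted p = 0.574).

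The genes whose levels followed Dab2 most closely over the 10 arrays, among 15661 others, were C3ar1, Frrs1, Slc35f2, Nrp1, Lrrc8b and Atp6v0a1. Their Pearson correlations with Dab2 lay between 0.938 and 0.953, over arrays that come in pairs from 5 lines. C3ar1, the receptor of the complement fragment C3a, came first, with 1.10, 0.60 and 0.52 as its differences in the fl lines and 0.15 and -0.22 in the wt lines. Nrp1 encodes neuropilin-1, Lrrc8b a subunit of volume-regulated anion channels and Atp6v0a1 a subunit of the vacuolar proton pump. Among the members, the correlation with Dab2 was 0.899 for Msr1, 0.871 for Stab1 and 0.862 for Lrp1. It was 0.504 for Cd68, 0.439 for Adgre1, 0.339 for Cd14 and 0.149 for Marco. Once each line was centred on its mean, which leaves the differences with 4-OHT, the correlation of each of these members was higher. They stood at 0.939 for Stab1, 0.926 for Msr1, 0.918 for Lrp1, 0.872 for Adgre1, 0.780 for Cd68, 0.520 for Cd14 and 0.306 for Marco. After that centring 0 of the 6 genes remained among the closest 6, which were then Zswim6, Vcan, Mmp8, Irf8, Ccne1 and Itga1. Without the vehicle array of line 10986, C3ar1, Slc35f2 and Lrrc8b remained among the closest 6. These correlations describe the arrays and carry no test.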

How the data were processed

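Gene expression in sorted c-Kit-positive mouse leukaemia cells was measured on 10 biotin-labelled 1-colour arrays, 1 for each of 5 lines and 2 treatments. The deposited intensity values were made by the authors with RMA, per the submitters' processing notes. This method removes background, equalises the arrays and summarises the probes of a probe set. No source used here names the software. The deposited intensities have array medians of 144.7 to 158.2 and far higher maxima, which shows a linear scale, and were turned into log2 values here. Arrays have no read depth, so their number limits the precision.

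Of 35556 probe sets, 21789 had exactly 1 gene symbol in the platform annotation, 1621 had several and 12146 were not listed there and are unnamed. For 21698 of the first kind the Entrez identifier was found in the RefSeq gene table of GRCm38.p6, and 0 symbols needed an update. The brightest probe set stood for each of 19938 genes. The 15662 genes with a mean log2 level of at least 6.23, which is the 25th percentile over probe sets, entered the fits. Changes with 4-OHT were fitted by limma 3.58.1 (R 4.3.3) over the 10 arrays, with the line as a fixed block and separate terms for fl and wt lines. For comparisons of genotypes, 4 group means were fitted and the line was a random block (statmod 1.5.0, correlation 0.165). Tests were two-sided, adjusted by Benjamini-Hochberg over all genes tested, with a threshold of 0.05. The block rests on the series design, in which cells of 1 line were cultured both ways. As a check of the pairing, the deviations of same-line arrays had correlations over genes of 0.78, 0.22 and -0.06 for lines 10949, 10950 and 10986. With 2 wt lines that value, 0.43, is the same for each. The fits were tested on simulated data.

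The members and gene lists were chosen with earlier results of these data known. Genes outside the 9 were named by rule. Of each list these were the genes past the threshold and the 3 with the largest change in the fl lines. Ap2m1, Tlr4, Cd36, Kit and Csf1r were always named, with up to 2 markers of each cell type and the 6 genes most like Dab2. 1 further gene of that rule is not reported here. The check genes Zfx, Mpo and Cdh5 and the genes named with the 2 other likeness measures fall outside the rule. The alternatives left out the line block, changed the level filter, tested every probe set, rescaled the arrays, changed the variance model, and left out each line or the vehicle array of line 10986. Promoter windows are RefSeq sequences of GRCm38.p6.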

Additional observations from a re-analysis of the deposited data

Results flagged for a closer look

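Msr1 is given here because every fl line was higher with 4-OHT and both wt lines were lower. The differences were 1.23, 0.32 and 1.01 in fl lines 10949, 10950 and 10986, and -0.03 and -0.37 in wt lines 10977 and 10980. The mean of the fl lines minus that of the wt lines was 1.06. That difference shares the fl arrays with the one known beforehand, and Msr1 was singled out by its signs. Its limma SE of 0.29 and adjusted p of 0.7 are therefore a description, and no test is read from them. Of all genes tested, 14.6% were higher in each fl line and 24.5% were lower in both wt lines. The share with both patterns was not counted. Line 10977 moved by less than any fl line and close to 0.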

How the results depend on the processing

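The Dab2 difference in the fl lines was 1.91 without the line as a replicate block, and 28 genes were then called. It was 2.13 with neither the block nor the 10986 vehicle array, where Lrp1 stood at 1.46, and 1.83 to 2.02 when lines were left out in turn. In the fl lines 8 genes were called with no level filter, 14 with the stricter filter, 3 with arrays centred on their median, 61 after quantile normalization (28 higher and 33 lower, against 8 and 16) and 3907 with array weights. Leaving out lines gave 0 to 440. Members called were 0 to 1 with lines left out and 6 with array weights. The estimation of the weights stopped before it converged in 1 of 2 fits. For the difference of fl and wt lines 1 gene was called without the block, with or without that vehicle array, 359 with array weights and 0 to 20 with lines left out, and members called were 2 with weights and 0 to 1 with lines left out. Under vehicle 0 genes were called with no filter, the stricter filter or quantile normalization, 6237 with weights and 0 to 15 with lines left out. With weights 2 members were called there, Dab2 at -0.80 and Cd14 at -0.75. Under 4-OHT, fl against wt gave 66 genes with centring (10 higher and 56 lower, against 29 and 72), 1106 with weights, 3 of them members, and 0 to 51 with lines left out. In the wt lines no alternative gave a call.

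Of the gene lists in the fl lines, endocytic adaptors held 1 call without the block and after quantile normalization, 13 with weights and 0 to 2 with lines left out. Other scavenger receptors held 1 after quantile normalization and with the trended and robust prior, 3 with weights and 0 to 1 with lines left out. The LDL receptor list held 5 and the lipopolysaccharide list 6 with weights, the second 0 to 3 with lines left out. Macrophage transcription factors held 0 without the block, with or without that array, with no filter, the stricter filter or centring, 5 with weights and 0 to 2 with lines left out. Signs turned for small wt differences when 1 wt line was left out, since the value is then the difference of the remaining line. The range was -0.19 to 0.20 for Dab2, -0.31 to 0.29 for Cd68, -0.039 to 0.091 for Stab1, -0.73 to 0.67 for Lrp1, -0.67 to 0.056 for Cd14 and -0.66 to 0.35 for Adgre1. Quantile normalization turned Cd68 to 0.014 and Lrp1 to 0.031 there. Under vehicle Stab1, 0.04 as reported, was -0.0054 with centring, -0.023 after quantile normalization, -0.025 with weights, -0.019 without that array and -0.019 to 0.071 with lines left out. The cause of the other shifts was not tested. The second Dab2 probe set stayed below the level filter when every probe set was tested, and gave no fitted value. Mean signals near the level filter were those of Marco and Mrc1.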
